A study of Mus musculus with 16 samples.

Results

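The 10 genes described here encode enzymes that turn cholesterol into bile acids and join those to an amino acid: Cyp7a1, Cyp8b1, Cyp27a1, Cyp7b1, Hsd3b7, Akr1d1, Amacr, Scp2, Slc27a5 and Baat. They were chosen by name, as enzymes of the classic and the alternative pathway with a probe on the array, and are 10 of the 19057 genes that have one. RNA was measured in mouse liver with Illumina mouse Ref-6 v2 bead arrays, 16 in all with 1 array per sample. The study set male against female liver, and its labels also hold livers with a deletion in Rxra.

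The groups were 3 male KO livers (replicates 4, 5 and 6), 3 male WT livers (replicates 1, 2 and 3), 5 female KO livers (replicates 6 to 10) and 5 female WT livers (replicates 1 to 5), all from mice aged 2 months. KO stands for the genotype labelled hs-RXRa-Dex4-/-, a deletion in Rxra confined to hepatocytes, and WT for wild-type. RXRα, the product of Rxra, binds DNA as the partner of other nuclear receptors. In earlier mice of this kind hepatocytes lack the part of RXRα that binds DNA and other liver cells keep the receptor. Whether the rest of the hepatocyte protein remained was not tested here. The strain, the feeding state and the hour of collection were not given in the sources used here. The labels number the samples without naming animals, so p-values measure the spread between these samples.

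Bile acids are made in hepatocytes and carry dietary fat and cholesterol through the gut. In the classic pathway Cyp7a1 hydroxylates the sterol ring first, and in the alternative pathway Cyp27a1 oxidizes the side chain first and Cyp7b1 then hydroxylates the ring. The bile acid receptor FXR, encoded by Nr1h4, acts with RXRα as its partner and lowers Cyp7a1 and Cyp8b1 when bile acids are plentiful. Cyp7a1 is also known for a strong daily rhythm.

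The values are deposited intensities, background-subtracted and normalized between arrays. A probe counted as detected above 3 times the background spread of its array, an intensity of 20.9 to 21, and 9906 genes detected on at least 3 arrays were tested, each by its brightest detected probe. Differences are on the log2(intensity + 16) scale, which understates the change of dim genes. They come from limma with 1 mean per group, and adjusted p is by the Benjamini-Hochberg method over all 9906 genes. Xist, an RNA of the inactive X chromosome, has 4 probes, of which 2 were detected in all 10 female livers and the other 2 in some of them, and none was detected in any of the 6 male livers. The Rxra probe gave 62.1 to 109 in male KO livers against 47.7 to 78.4 in male WT livers, and 54.2 to 101 in female KO livers against 52.6 to 106 in female WT livers. Its place relative to the deleted exon was not given in the tables used here, so it is no check of the genotype. Within a group each array correlated with the rest by 0.952 to 0.981 on average, and female WT 4 and female WT 2 had the 2 lowest values. The 6 hepatocyte markers (Alb, Ttr, Apoa1, Cps1, Serpina1a and Tat) were all tested, and their summed intensity was 109378 to 119249 in male KO, 100618 to 119754 in male WT, 115562 to 122863 in female KO and 100975 to 116538 in female WT livers.

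Cyp8b1 was the member that passed the test between genotypes, and Cyp7b1 and Cyp7a1 were those that passed between the sexes. Between KO and WT livers 1 of 9 tested members passed in males, beside 1.5% of all tested genes, and 0 of 9 passed in females, beside 2.37% of all tested genes. Between male and female livers 1 of 9 passed in KO, beside 2.36% of all tested genes, and 2 of 9 passed in WT, beside 3.71% of all tested genes. No member passed the interaction of sex and genotype, which 0.0606% of all tested genes passed. At an unadjusted p under 0.05 by limma the members between genotypes numbered 2 in males and 2 in females, beside 14.3% and 12.3% of all tested genes. Between sexes they numbered 2 in KO and 3 in WT, beside 14% and 17.4% of all tested genes, and for the interaction 1, beside 8.6%. The comparisons share arrays: male KO minus male WT and male WT minus female WT, for example, use the same 3 male WT livers.

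**Figure D1:**
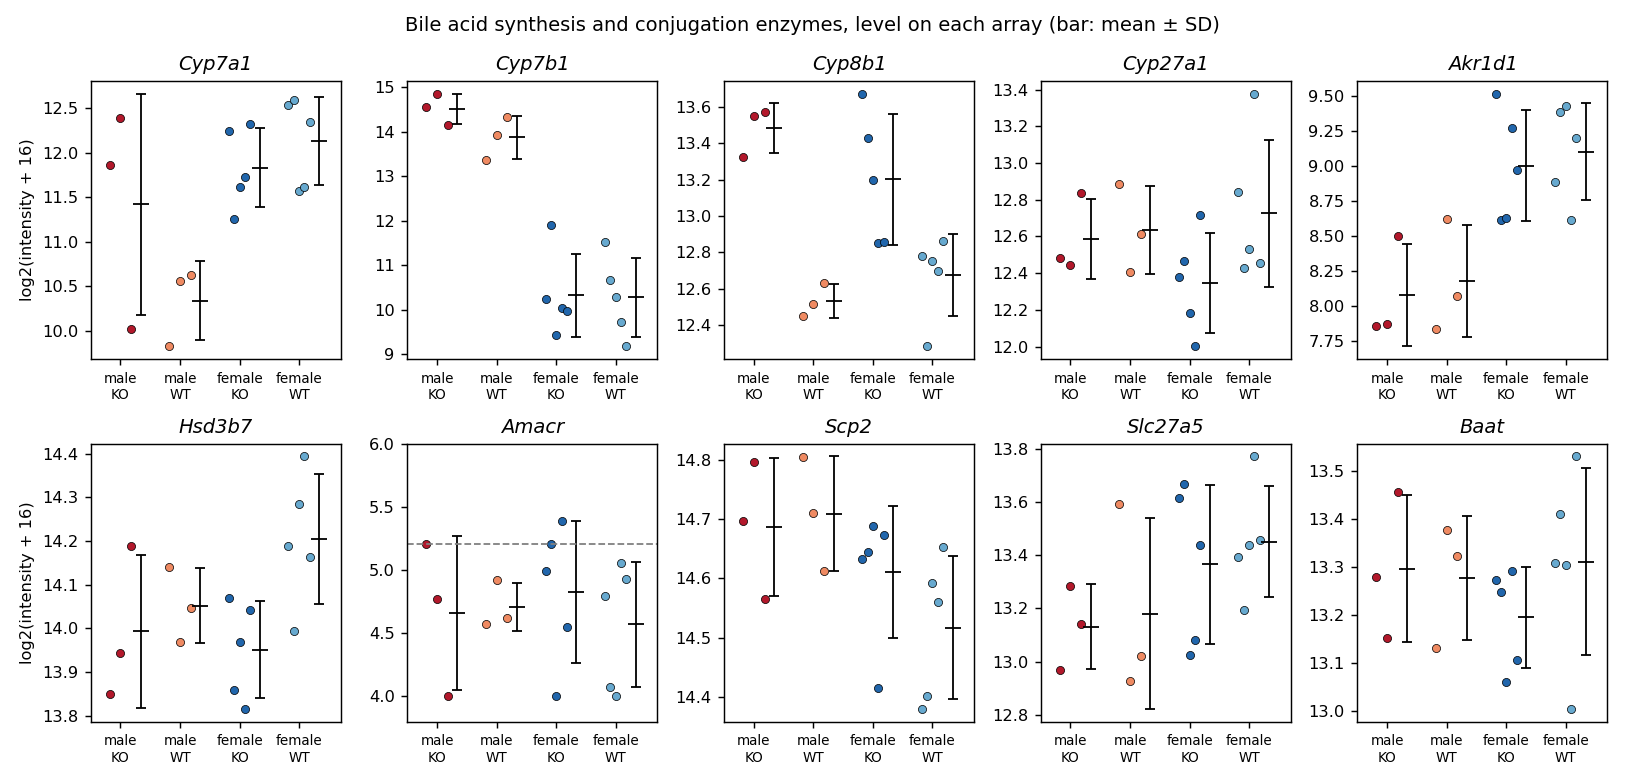
Level of each enzyme on the log2(intensity + 16) scale (vertical axis) on every array (points), by group, with the group mean ± SD (bars); each panel has its own axis, and the dashed line for Amacr is the detection threshold. Cyp7b1 lies between 10525 and 29352 intensity units in male livers and between 561 and 3816 in female livers, and male KO Cyp8b1 lies above male WT.

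The promoter of Cyp8b1 is shown because this gene had the called difference between genotypes. The RefSeq table holds promoter windows for 5 of the 10 members (Cyp8b1, Cyp27a1, Akr1d1, Hsd3b7 and Scp2). The 250 bases before the start of Cyp8b1 lie at chr9:121916306-121916555 (GRCm38.p6, minus strand), with a match to the HNF4 motif and to the TATA motif in capitals.
Cyp8b1: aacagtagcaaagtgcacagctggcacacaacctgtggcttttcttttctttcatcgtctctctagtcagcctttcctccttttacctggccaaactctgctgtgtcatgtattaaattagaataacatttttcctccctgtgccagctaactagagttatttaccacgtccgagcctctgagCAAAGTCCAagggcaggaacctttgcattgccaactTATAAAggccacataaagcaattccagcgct
The letters CAAAGTCCA, a motif bound by the liver receptor HNF4α, stand 67 to 59 bases before the start, and the letters TATAAA stand 31 to 26 bases before it. The motifs were searched on both strands of the 250 bases before each start. CAAAGTCCA was found in 1 of the 5 member windows, that of Cyp8b1, and in 0.384% of 32851 windows. TATAAA was likewise found in Cyp8b1 alone of the 5, and in 12.4% of all windows. The nuclear receptor half-site AGGTCA was found in Akr1d1 and Scp2 and in 14% of all windows. The direct repeat of that half-site with a single base between, a form that RXRα pairs can bind, contains the half-site itself. It was in 0 of the 5 member windows and in 0.0335% of all windows. A match is a description of letters in this window and not of binding.

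Cyp8b1 sets the share of cholic acid among the bile acids, by a further hydroxylation of the ring. Its probe (ILMN_2627744) gave 10260, 11983 and 12179 in male KO livers against 5577, 5843 and 6335 in male WT livers. All 3 male KO livers lay above all 3 male WT livers. Cyp8b1 was thus 1.93-fold higher in male KO livers, a log2 difference of 0.95 ± 0.21 (SE, n = 3 each) with a 95% interval of 0.50 to 1.41 and an adjusted p of 0.0334 by limma. Such a lack of overlap was seen for 1 of 9 members and for 23.1% of all tested genes. The call did not survive the loss of any 1 of the 6 male arrays: the difference was then 0.91 to 1.03 and its adjusted p 0.065 to 0.13. In bulk tissue fewer cells of a type and less RNA per cell cannot be told apart.

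In female livers Cyp8b1 gave 13047, 11020, 9399, 7364 and 7396 in KO (replicates 6 to 10) against 7009, 4967, 6895, 6634 and 7418 in WT (replicates 1 to 5). Female KO livers 6, 7 and 8 lay above every female WT liver, while KO livers 9 and 10 lay within the WT range. The difference of 0.53 ± 0.17 (SE, n = 5 each; 95% interval 0.17 to 0.88) did not pass after adjustment (adjusted p = 0.136 by limma). The KO minus WT difference was 0.42 larger in males than in females, with an interval of -0.15 to 1.00 and an adjusted p of 0.657 by limma. Averaged over both sexes, an alternative added after these values were seen, Cyp8b1 was higher in KO livers by 0.74 (interval 0.45 to 1.03, adjusted p = 0.00348 by limma), beside 4.59% of all tested genes passing. Between the sexes Cyp8b1 did not pass: male minus female was 0.28 in KO (interval -0.13 to 0.69) and -0.14 in WT (interval -0.55 to 0.26).

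Cyp7a1, the rate-limiting enzyme of the classic pathway, was lowest in male WT livers. Its probe (ILMN_2604383) gave 891, 1493 and 1569.7 in male WT livers against 5902, 6129, 3023, 3129 and 5183 in female WT livers. The groups did not overlap, which held for 2 of 9 members and 11.5% of all tested genes. The log2 difference of -1.79 ± 0.43 (SE, n = 3 and 5; 95% interval -2.71 to -0.88; adjusted p = 0.0273 by limma) corresponds to a level 3.46-fold lower in male WT. Without male WT 1, 2 or 3, or without female WT 1, 2 or 5, the adjusted p was 0.0558 to 0.0987. The difference then lay between -1.53 and -1.94. In all, the call was lost under 9 of 17 alternatives, described below.

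In KO livers Cyp7a1 gave 3694, 5325 and 1023 in males (replicates 4, 5 and 6) against 4827, 2433, 3107, 3372 and 5090.4 in females. Male KO 4 and 5 lay within or above the female KO range, and male KO 6 lay below it, within the male WT range. The male minus female difference in KO livers was -0.41 (interval -1.32 to 0.50, adjusted p = 0.723 by limma), and 0.29 without male KO 6. The male KO minus male WT difference was 1.08 (interval 0.06 to 2.10, adjusted p = 0.319 by limma) with all arrays, and 1.78 (adjusted p = 0.0373) without male KO 6. Leaving out each of the 6 male arrays in turn, this difference ran from 0.60 to 1.78 and its adjusted p from 0.0373 to 0.716 by limma. It passed under 1 of 13 alternatives, the loss of male KO 6. In females KO minus WT was -0.30 (interval -1.09 to 0.49, adjusted p = 0.845 by limma). The interaction of 1.38 (interval 0.09 to 2.67) had an adjusted p of 0.565 by limma, so a different genotype effect in the sexes was not shown for Cyp7a1.

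Of 13 clock and clock output genes 11 were tested, and 0 passed in either sex between genotypes. Their median KO minus WT difference was 0.47 in males and 0.09 in females, beside medians of 0.02 and 0.00 over all tested genes. Their summed intensity was 6689 to 9935 in male KO against 4967 to 6199 in male WT livers, without overlap. Taken singly, 23.1% of all tested genes did not overlap between male KO and male WT livers. The summed clock genes gave 3452 to 9962 in female KO and 3068 to 9180 in female WT livers, a wide range within each group. Their part in the differences of Cyp7a1 and Cyp8b1 was not tested. Sums of 2 other lists did not overlap between male KO and male WT livers either, though their genes did not move together. The 2 tested erythroid markers summed to 12459 to 16121 in male KO and 17329 to 18970.3 in male WT livers, where Hba-a1, a globin, gave 11871 to 15381 in male KO and 16774 to 18553 in male WT, and Alas2, an enzyme of haem synthesis, ran the other way with 588 to 740 in male KO and 417 to 555 in male WT. The 11 tested regulators of bile acid synthesis summed to 12601 to 13242 in male KO and 9298 to 12142 in male WT livers, while their median KO minus WT difference in males was -0.02. Of 6 cholangiocyte markers Sox9 alone was tested, while Krt19, Krt7, Epcam and Cftr were too dim. Sox9 gave 209.7 to 327 in male KO and 94.1 to 179 in male WT livers, with a KO minus WT difference of 0.74 in males (adjusted p = 0.272 by limma) and in females (adjusted p = 0.138). The part of these lists in the differences was not tested either.

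Cyp27a1, the mitochondrial enzyme that begins the alternative pathway and also oxidizes the side chain in the classic one, has 3 probes. The brightest (ILMN_2960114) gave 5698, 5549 and 7306 in male KO, 7559.6, 5410.2 and 6251 in male WT, 5309, 5644, 4629, 4082 and 6704 in female KO, and 7318, 5499, 5902, 10629.8 and 5592 in female WT livers. The groups overlapped in every comparison, and female WT 4 was the highest liver. KO minus WT was -0.38 in females (interval -0.79 to 0.03, adjusted p = 0.463 by limma) and -0.05 in males (interval -0.57 to 0.48). Male minus female was 0.24 in KO (interval -0.23 to 0.71) and -0.09 in WT (interval -0.56 to 0.38). The other probes, ILMN_2620326 and ILMN_2960108, gave KO minus WT of -0.37 and -0.32 in females and -0.24 and -0.10 in males. Their male minus female was 0.26 and 0.29 in KO and 0.13 and 0.07 in WT. In a fit of all detected probes none of these passed.

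Cyp7b1, the ring hydroxylase of the alternative pathway, which acts on oxysterols, was the member with the highest contrast between sexes. Its probe (ILMN_2601215) gave 23939, 29352 and 18329.9 in male KO livers against 1194, 3816, 674, 1039.9 and 989 in female KO livers. In WT livers it gave 10525, 15668 and 20602 in males against 2919, 1610.4, 1232, 828 and 561 in females. Every male liver lay above every female liver, by a wide margin in both genotypes, and the lowest male value was 10525 against a highest female value of 3816. Male KO livers held 18.4-fold the female KO level, a log2 difference of 4.20 ± 0.51 (SE, n = 3 and 5; interval 3.12 to 5.28; adjusted p = 9.38e-05 by limma). Male WT livers held 12.2-fold the female WT level, a difference of 3.60 ± 0.51 (interval 2.53 to 4.68; adjusted p = 0.000411 by limma). Leaving out any 1 array, the difference was 3.98 to 4.60 in KO and 3.33 to 3.92 in WT livers and passed each time.

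Between genotypes Cyp7b1 levels overlapped in both sexes. KO minus WT was 0.64 in males, with a wide interval of -0.56 to 1.84 (adjusted p = 0.63 by limma), and 0.05 in females, with an interval of -0.89 to 0.98 (adjusted p = 0.983). The sex difference was 0.59 larger in KO than in WT livers, with an interval of -0.93 to 2.12 (adjusted p = 0.771 by limma). The spread within groups was also high for this gene: the SD was 83.3% of the mean in female KO and 64.5% in female WT livers, and 23.1% in male KO and 32.3% in male WT livers. Of the 6 endothelial markers 5 were tested, and their summed intensity was 7124 to 8292 in male KO and 8745 to 9964 in female KO livers, without overlap. In WT it was 6849 to 7950.2 in male and 7823 to 10002 in female livers, with overlap. One of them, Pecam1, an adhesion molecule of endothelial cells, was lower in males by limma in KO (-0.79, adjusted p = 0.0332) and in WT (-0.73, adjusted p = 0.0397). It was the only 1 of the 5 at an unadjusted p under 0.05 by limma in either genotype. The median of the 5 was -0.29 in KO and -0.28 in WT. Pecam1 is also dim, with 31.9 to 41.5 in male and 55.8 to 119 in female livers. Of the 6 hepatocyte markers Alb was lower in male WT than in female WT livers (-0.97, adjusted p = 0.0236 by limma). No other marker of the 6 was at an unadjusted p under 0.05 by limma in WT, and their median was -0.17. The Alb probe gave 564 to 842 in male WT and 1065 to 1668 in female WT livers. Of the 2 tested erythroid markers Alas2 was higher in male KO than in female KO livers (1.11, adjusted p = 0.0378 by limma) while Hba-a1 differed by -0.24 (adjusted p = 0.688). The 5 tested of 6 stellate cell markers summed to 7137 to 8508 in male KO and 7788 to 10432 in female KO livers. In WT they summed to 6580.1 to 7169.9 in male and 8052 to 9743 in female livers, without overlap, with a median difference of -0.40 and 0 markers passing (2 at an unadjusted p under 0.05 by limma). Of 4 exocrine pancreas markers Cela1 was tested, with 2277 to 2979 in male KO and 917 to 2252 in female KO livers, without overlap, and 1958 to 3409 in male WT and 702 to 2121 in female WT livers. Its difference was 0.91 in KO (adjusted p = 0.264 by limma) and 0.95 in WT (adjusted p = 0.184). The 5 tested Kupffer cell markers summed to 3660 to 5766 in male KO and 3762 to 5060 in female KO livers. In WT they summed to 3605 to 4576 in male and 2960.1 to 10419.6 in female livers. These sums overlapped between the sexes in both genotypes. Taken singly, 13.1% of all tested genes did not overlap between male and female KO livers, and 11.5% between male and female WT livers. The part of cell makeup in the sex differences was not tested.

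Hsd3b7 and Akr1d1 act next in both pathways, on the ring. Hsd3b7 oxidizes the ring hydroxyl group that cholesterol brings along, and its brighter probe (ILMN_1260456) spanned 14737 to 18643 in male KO, 16023 to 18040.3 in male WT, 14398 to 17182 in female KO and 16306 to 21511 in female WT livers. Over all 16 livers the highest level was 1.49 times the lowest. KO minus WT was -0.25 in females (interval -0.50 to -0.01, unadjusted p = 0.0447, adjusted p = 0.382 by limma) and -0.06 in males (interval -0.38 to 0.26). Male minus female was 0.04 in KO (interval -0.24 to 0.33) and -0.15 in WT (interval -0.44 to 0.13). The dimmer Hsd3b7 probe (ILMN_3114124) gave KO minus WT of -0.21 in females and 0.07 in males. Its male minus female was 0.12 in KO and -0.16 in WT, and none of these passed.

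Akr1d1 reduces the ring double bond and so gives the bent ring system of bile acids. Its probe (ILMN_2752782) gave 215, 218 and 345 in male KO livers against 715, 375, 379, 600.3 and 485 in female KO livers. In WT livers it gave 212, 376 and 252 in males against 455, 651, 672, 375 and 571 in females. Male KO livers all lay below female KO livers, and in WT male 2 and female 4 lay within 1 unit of each other, the only overlap. Male minus female was -0.92 ± 0.26 in KO (interval -1.47 to -0.37, adjusted p = 0.0817) and -0.93 ± 0.26 in WT (interval -1.48 to -0.38, adjusted p = 0.0614) by limma (SE, n = 3 and 5 each). Neither passed at the threshold of 0.05, and the WT difference passed without female WT 4 (adjusted p = 0.0353), with an offset of 50 (0.0457) and with array weights (0.00521). With array weights the KO difference passed too (0.0411). Under the other alternatives Akr1d1 stayed uncalled: it passed under 3 of 17 in WT and under 1 of 15 in KO. Leaving out 1 array, its adjusted p by limma reached up to 0.226 in WT and 0.320 in KO. Akr1d1 and Cyp7b1 were the 2 members without overlap between male and female KO livers, beside 13.1% of all tested genes. KO minus WT was -0.10 in males (interval -0.72 to 0.52) and -0.10 in females (interval -0.58 to 0.37).

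**Figure D2:**
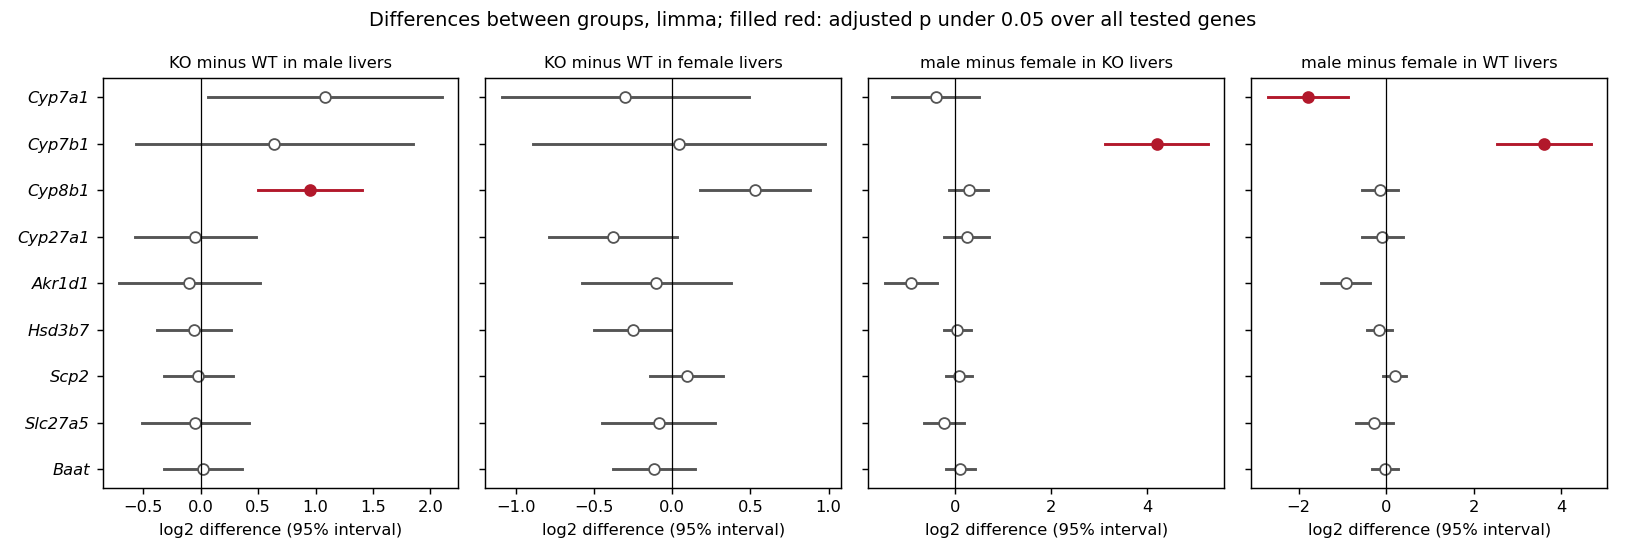
Log2 difference (horizontal axis, points) with its 95% interval (lines) for each of the 9 tested enzymes in the 4 comparisons, by limma; red filled points have an adjusted p under 0.05 over all 9906 tested genes, and the panels have different scales. Cyp8b1 (0.95) is filled between genotypes in males, Cyp7b1 between sexes in KO (4.20) and in WT (3.60), and Cyp7a1 between sexes in WT (-1.79).

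Amacr and Scp2 act on the side chain in peroxisomes. Amacr turns the side chain into the form that can be shortened, and its single probe (ILMN_2948539) was detected on 2 of 16 arrays, both female KO, with intensities from -6.53 to 25.8. It was the member that was not tested, and a dim probe leaves the level of its transcript unknown. Counted as detected at 2 times the background spread it was on 7 arrays, and at 5 times on 0.

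Scp2, whose long form is the thiolase that cuts the side chain, has 4 probes annotated to the same transcript record, and they did not give the same result. The brightest (ILMN_2705886), which stands for the gene, spanned 24223 to 28463 in male KO, 25029.7 to 28623 in male WT, 21815 to 26383 in female KO and 21293 to 25755 in female WT livers. For this probe male minus female was 0.08 in KO (interval -0.19 to 0.34) and 0.19 in WT (interval -0.08 to 0.46), and KO minus WT was -0.02 in males (interval -0.32 to 0.28) and 0.09 in females (interval -0.14 to 0.33). None of these passed. A second bright probe (ILMN_2705881) had sex differences of 0.17 in KO (interval -0.12 to 0.46) and 0.02 in WT (interval -0.27 to 0.31).

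Another Scp2 probe (ILMN_1221684) gave 12328, 16901 and 12744 in male KO livers against 2849, 2704, 2189, 2029 and 4173 in female KO livers. In WT livers it gave 12019.9, 12357 and 13312 in males against 1815, 2003, 1516, 2736 and 2329 in females. Every male liver lay far above every female liver on this probe. In a fit of all 14946 detected probes its male minus female difference was 2.35 in KO (interval 1.87 to 2.84, adjusted p = 7.00e-06 by limma) and 2.61 in WT (interval 2.13 to 3.10, adjusted p = 1.38e-06 by limma). In that fit 2.19% of probes passed in KO and 3.87% in WT. The dimmest Scp2 probe (ILMN_2651412) gave 175, 121 and 193 in male KO livers and 53.9 to 111 in female KO livers. It gave 109, 193 and 104 in male WT livers and 54.6 to 122 in female WT livers. Its sex differences of 0.91 in KO and 0.58 in WT did not pass (adjusted p = 0.0988 and 0.265 by limma). With the mean of the 4 probes as the level of the gene, Scp2 was higher in male livers by 0.88 in KO and by 0.85 in WT (adjusted p = 0.000507 and 0.000536 by limma). Which part of the transcript each probe reads was not given in the tables used here.

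**Figure D3:**
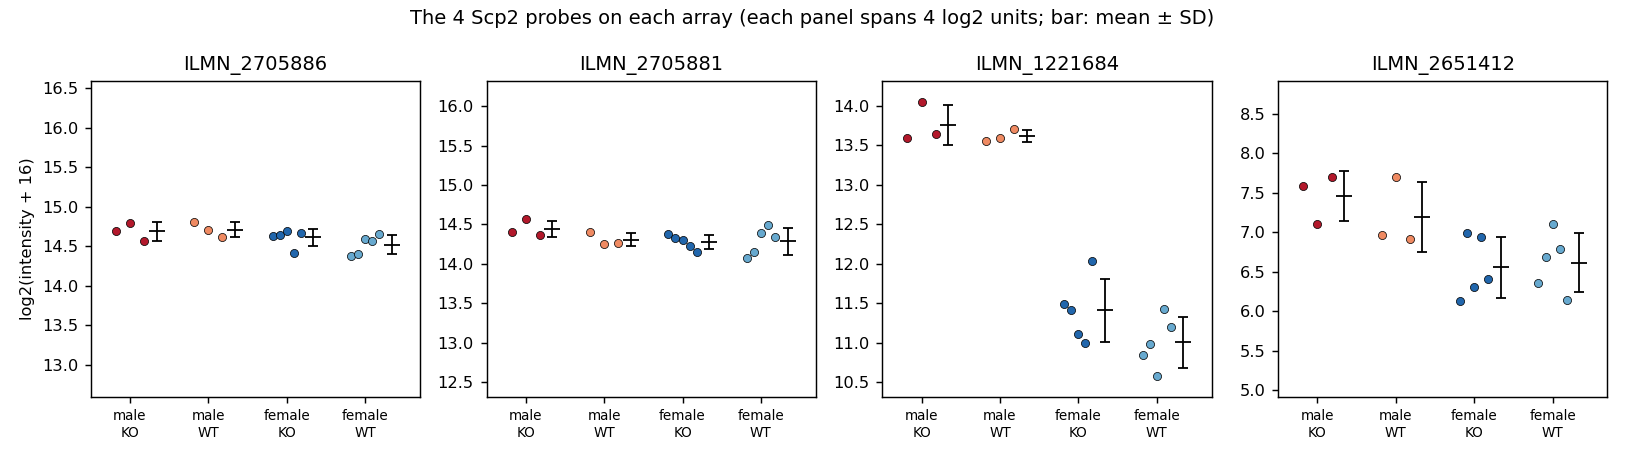
Level of each of the 4 Scp2 probes on the log2(intensity + 16) scale (vertical axis) on every array (points), by group, with the mean ± SD (bars), each panel spanning the same number of log2 units. Only ILMN_1221684 separates male from female livers by a called difference (2.35 in KO, 2.61 in WT).

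Slc27a5 and Baat carry out the conjugation, Slc27a5 as the ligase that joins a bile acid to coenzyme A and Baat as the transferase that passes it to taurine or glycine. The brighter probe of Slc27a5 (ILMN_1228815) spanned 7992 to 9961 in male KO, 7781 to 12328 in male WT, 8311 to 12996 in female KO and 9349 to 13960 in female WT livers. KO minus WT was -0.05 in males (interval -0.52 to 0.42) and -0.09 in females (interval -0.45 to 0.28). Male minus female was -0.23 in KO (interval -0.65 to 0.18) and -0.27 in WT (interval -0.69 to 0.15). The dimmer Slc27a5 probe (ILMN_2847061) gave KO minus WT of 0.13 in males and 0.15 in females. Its male minus female was -0.33 in KO and -0.31 in WT, and none of these passed.

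The Baat probe (ILMN_1259009) spanned 9086 to 11225 in male KO, 8963 to 10629.8 in male WT, 8532 to 10007 in female KO and 8201 to 11813 in female WT livers. The 4 ranges overlapped one another, and the highest liver was 1.44 times the lowest. KO minus WT was 0.02 in males (interval -0.32 to 0.35) and -0.12 in females (interval -0.38 to 0.15), and male minus female was 0.10 in KO (interval -0.20 to 0.40) and -0.03 in WT (interval -0.33 to 0.27).

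Over the 9 tested members the median difference lay close to that of all tested genes. It was -0.02 for KO minus WT in males and -0.10 in females, beside 0.02 and 0.00 over all tested genes. It was 0.08 for male minus female in KO and -0.14 in WT, beside 0.01 and -0.02. Between 6 and 8 of the 9 differed by less than 0.5 in each of these 4 comparisons. No member was without overlap between female KO and female WT livers, beside 3.89% of all tested genes.

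**Figure D4:**
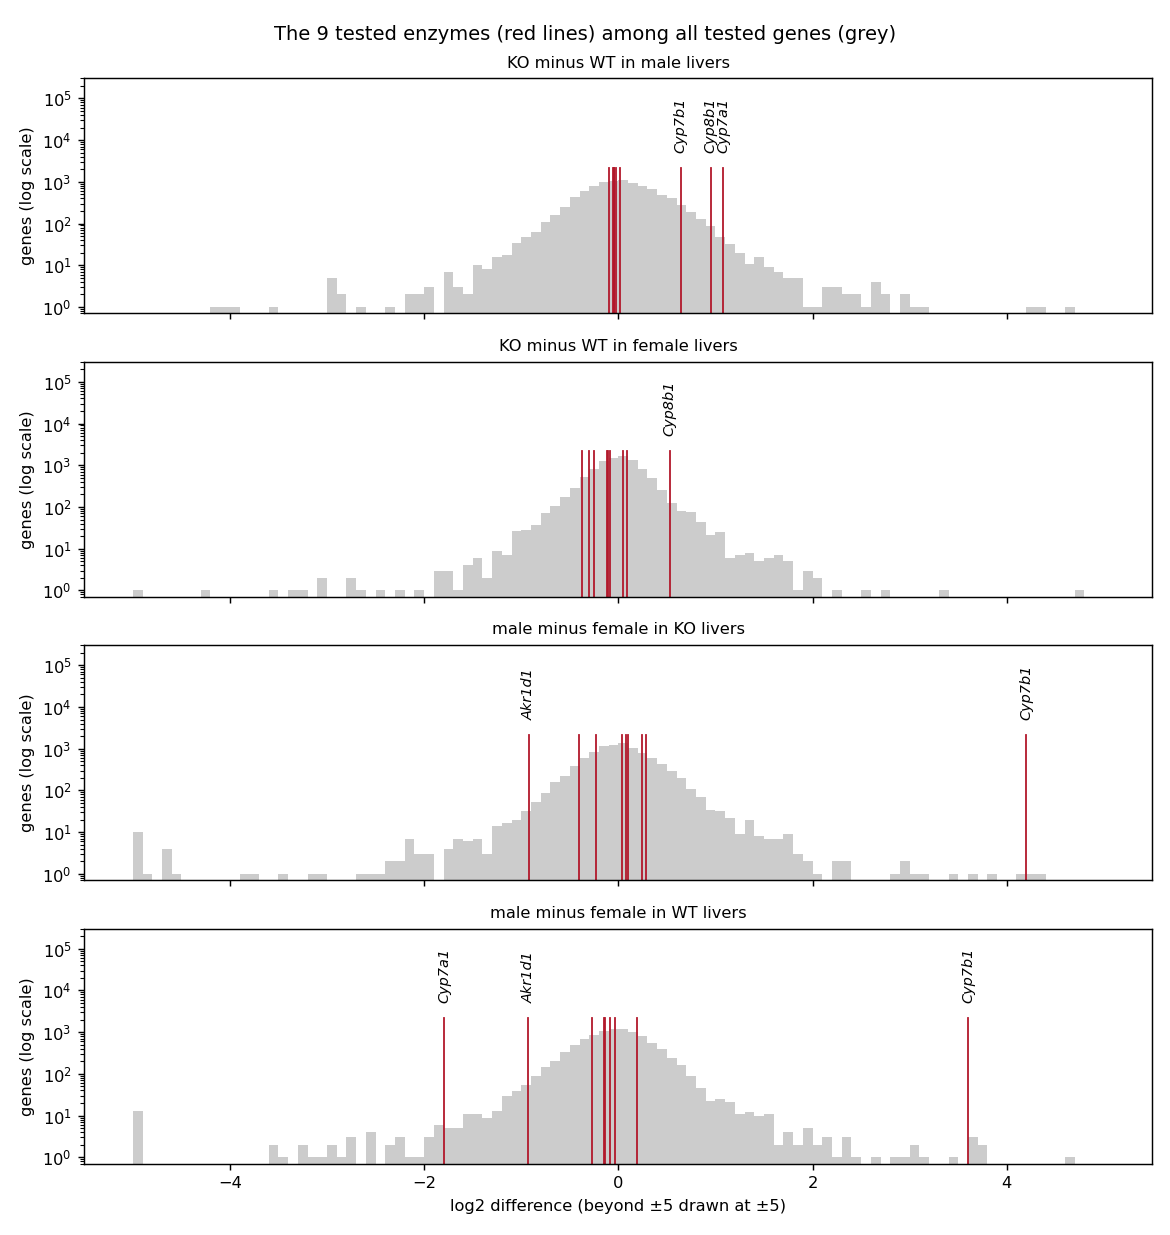
Histograms of the log2 difference (horizontal axis) of all 9906 tested genes (grey, number of genes on a log scale) in the 4 comparisons, with a red line for each of the 9 tested enzymes. Most enzymes lie in the bulk near 0, and Cyp7b1 lies at 4.20 in KO and 3.60 in WT between sexes.

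Of 14 other genes of bile acid synthesis 10 were tested, and 2 of them passed in some comparison. Cyp2c70, which makes the muricholic acids of mice, gave 15326, 18120.2, 19014, 10932 and 17792 in female KO livers against 26383, 22963, 27854, 27149 and 20514 in female WT livers, without overlap, a log2 difference of -0.64 (adjusted p = 0.0371 by limma). It gave 29015, 27289.6 and 26251 in male KO livers, all above the female KO livers, a difference of 0.79 (adjusted p = 0.0241 by limma). Akr1c14, a hydroxysteroid dehydrogenase, gave 4239, 4004 and 5097 in male KO livers against 2059 to 3233 in female KO livers, again without overlap, a difference of 0.86 (adjusted p = 0.0199 by limma). The list thus had 1 lower gene between genotypes in females and 0 in males, beside 2.37% and 1.5% of all tested genes passing. It had 2 higher genes between sexes in KO and 0 in WT, beside 2.36% and 3.71%. Lack of overlap held for 3.89% of all tested genes between female KO and WT, and for 13.1% between male and female KO livers. At an unadjusted p under 0.05 by limma the list had 7 genes between genotypes in females and 4 in males, beside 12.3% and 14.3%. Between sexes it had 2 in KO and 1 in WT, beside 14% and 17.4%. Its median KO minus WT difference was -0.41 in females and 0.03 in males, beside 0.00 and 0.02 over all tested genes.

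Of 14 regulators of bile acid synthesis 11 were tested, among them Nr1h4 (FXR), Hnf4a and Nr5a2. Of the 11, 1 passed, for KO minus WT in males, beside 1.5% of all tested genes. Ppargc1a, a coactivator of nuclear receptors induced by fasting, gave 14.5, 24.3 and 21.1 in male KO livers against 52.7, 43.8 and 65.0 in male WT livers, a log2 difference of -0.96 (adjusted p = 0.024 by limma). It is a dim gene, detected in 2 of 3 male KO livers. Nr1h4 differed by 0.53 between male KO and male WT (adjusted p = 0.158 by limma) and by 0.21 between female KO and female WT livers (adjusted p = 0.627). Nr0b2 (SHP), the repressor that FXR induces, and Fgfr4, the receptor for the gut hormone that lowers Cyp7a1, were not detected on enough arrays to be tested.

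Once the group means were taken off, Pearson correlations over the 16 arrays were computed for the 36 pairs of tested members. They ran from -0.57 for Cyp27a1 and Baat to 0.73 for Cyp27a1 and Hsd3b7, and Akr1d1 and Baat had 0.71. Cyp7a1 and Cyp8b1, which FXR is known to lower together, had a correlation of -0.14. Among all other tested genes Cyp8b1 was most alike in this measure to Insig2 (0.86), Cpeb4 (0.85) and Afdn (0.84). Cyp7a1 was most alike to Mtfmt (0.86), Itga8 (0.85) and Il6st (0.82), and Cyp7b1 to Sdf2l1 (0.84), Islr (0.83) and Tspyl4 (0.82). Mtfmt and Tspyl4 averaged 20.1 and 15.2, below the detection threshold. The genes most alike were picked as the highest among all other tested genes, and a search over so many can give high values by chance. Whether they vary together with these members was not tested. All these correlations are descriptions over 16 arrays that share their normalization.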

How the data were processed

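The authors deposited 1 intensity per probe and array, on a linear scale. Their processing notes name lumi, whose version was not given. The values show background subtraction (35.2 to 35.3% below 0 on each array) and quantile normalization, which removes any change shared by all genes. A second deposited table, of non-normalized signals in 32 columns, was not used because its columns match no sample label. Authors' settings for background and normalization were not given in the sources used here.

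Negative values were replaced by 0, and log2(intensity + 16) was analysed. Background spread is the root mean square of an array's values below 0 (6.97 to 6.99). The array annotation gives 1 gene for 34885 of 45281 probes, several for 18 and none for 10378, and 14946 probes were kept. All 16 arrays entered 1 limma fit (version 3.58.1, R 4.3.3; lmFit and eBayes, two-sided) with 12 residual degrees of freedom, 4.03 prior ones and a residual SD of 0.321 at the median. The fit was tested on simulated data. Intensity gives no read depth, and the number of arrays, 3 in each male group, limits the precision.

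The genes named are all 10 members, up to 4 passing genes of each other list per comparison, the 3 genes most alike to Cyp7a1, Cyp7b1 and Cyp8b1, and sex chromosome genes and Rxra as checks. Nr1h4, Hnf4a, Nr5a2, Nr0b2 and Fgfr4, and the markers Sox9, Krt19, Krt7, Epcam, Cftr, Hba-a1 and Cela1 and the hepatocyte markers other than Alb, did not pass or were not tested, and were named outside this rule, after their values were seen. Members and lists were chosen with earlier results of these data known. Alternatives were other offsets, no filter, the mean of all probes, only the compared groups, array weights, median centring, arrays left out and a replicate block.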

Additional observations from a re-analysis of the deposited data

Results flagged for a closer look

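In 2 of 32 combinations of a member probe and a female group of 5 livers, 1 liver stood apart from the rest by Dixon's criterion on the log2(intensity + 16) scale, which chance meets in about 1 of 20 groups. Cyp8b1 gave 4967 in female WT 2, and the next lowest female WT liver gave 6634, and on the log2 scale the gap was 0.721 of the group's range. Scp2 (ILMN_2705886) gave 21815 in female KO 9, and the next lowest female KO liver gave 25399.8, and on the log2 scale the gap was 0.800 of the group's range.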

How the results depend on the processing

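The calls rest on 3 or 5 arrays per group and on intensities with no read depth, and the precision is lowest for Cyp7b1, whose interval for KO minus WT in males runs from -0.56 to 1.84. Amacr, near background, has no test at all. Of 774 values of a member under an alternative, 700 kept their direction and their side of the threshold, 16 lost the call, 7 gained one and 51 changed sign. Most of the 774 belong to differences that were not called and so had no call to lose. For Cyp8b1 between genotypes in males the call was lost under 6 of 13 alternatives. For Cyp7a1 between sexes in WT it was lost under 9 of 17. For Cyp7b1 between sexes it was lost under 1 of 17 in WT and 0 of 15 in KO. None of the sign changes concerned a called difference. The causes were not tested.

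Leaving out 1 array, the genes passed numbered 74 to 147 for KO minus WT in males (149 with all arrays), 160 to 209 in females (235), 116 to 226 for male minus female in KO (234), 169 to 391 in WT (368) and 3 to 6 for the interaction (6). The members passed numbered 0 to 1 for KO minus WT in males and 1 to 3 for male minus female in WT. The gene counts that fell by over 1.5 times were those without male WT 2 (74), male WT 3 (79), male KO 4 (80) or male KO 5 (86) for KO minus WT in males, without male KO 4 (145) or male KO 5 (116) for male minus female in KO, without male WT 2 (171) or male WT 3 (169) in WT, and without male WT 3 (3) for the interaction. For KO minus WT in males the passing member without male KO 6 was Cyp7a1, and 0 passed without any other male array. For male minus female in WT, 1 member passed without male WT 1, 2 or 3 or female WT 1, 2 or 5, and 3 passed without female WT 4. The member differences that changed sign in this way ranged, for KO minus WT in males, from -0.17 to 0.077 for Cyp27a1, -0.31 to 0.12 for Akr1d1, -0.16 to 0.014 for Hsd3b7, -0.079 to 0.037 for Scp2, -0.18 to 0.16 for Slc27a5 and -0.062 to 0.091 for Baat. For KO minus WT in females Cyp7b1 ranged from -0.35 to 0.36. For male minus female in KO the range was -0.89 to 0.29 for Cyp7a1 and -0.055 to 0.11 for Hsd3b7, and in WT it was -0.22 to 0.072 for Cyp27a1 and -0.11 to 0.039 for Baat. For the interaction it was -0.21 to 0.22 for Akr1d1 and -0.090 to 0.24 for Slc27a5.

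With array weights, which favoured male WT 3 (weight 4.64) over the other arrays (0.295 to 1.63), 1611 genes passed for KO minus WT in males, 501 for male minus female in KO, 1405 in WT and 39 for the interaction. Akr1d1 then passed for male minus female in both genotypes, with 2 members passing in KO, and KO minus WT in males was 0.040 for Scp2, 0.068 for Slc27a5 and -0.011 for Baat. With only the compared groups in the fit, 137 genes passed for KO minus WT in females and 171 for male minus female in WT. With the mean of all detected probes, Scp2 passed as well and 2 members did for male minus female in KO. KO minus WT then was 0.035 for Slc27a5 in females, and in males 0.0039 for Hsd3b7, 0.13 for Scp2 and 0.041 for Slc27a5. Cyp27a1 was 0.038 for male minus female in WT and Scp2 0.024 for the interaction. With an offset of 50 Akr1d1 passed for male minus female in WT. With no filter on dim probes 1 member passed for male minus female in WT, as Cyp7a1 lost its call (adjusted p = 0.0638 by limma). Centred on the median, Baat was -0.0068 for KO minus WT in males and Akr1d1 -0.025 for the interaction. Without female WT 2 and 4 together, 156 genes passed for KO minus WT in females, where Cyp7b1 was -0.0070. For male minus female in WT 1 member then passed, as Cyp7a1 lost its call (adjusted p = 0.0703 by limma), and Cyp27a1 was 0.027.

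Male and female WT arrays 1 to 3 share replicate numbers, which the labels do not call pairs, and the main fit did not use them as a block. The deviations of same-numbered arrays from their group means correlated by 0.0983, 0.261 and 0.0749. Arrays of unlike number were not compared, so these values cannot decide whether the numbers mark pairs. With the number as a replicate block on these 6 arrays, 75 genes and 0 members passed for male minus female in WT, against 106 genes without the block. Cyp7b1 was 3.05 in both fits, with an adjusted p by limma of 0.0532 with the block and 0.00563 without it. The block also leaves fewer residual degrees of freedom on the same 6 arrays. With the block Cyp7a1 was -1.89 (adjusted p = 0.107 by limma) and Cyp27a1 was 0.035.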
